A study of Lens culinaris with 50 samples.

Results

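In the developing seed of lentil, 37 genes had reads in the globular stage embryo and in the globular stage seed coat but next to none in the whole seed of that stage, which holds both. The genes were chosen by that readout. For each gene, m was the smallest of its 4 values in the globular embryo and seed coat libraries, and a gene was taken if m was at least 10 normalized reads and both globular whole seed libraries were at most 10% of m. Of the 58243 genes in the deposited table, 17061 had an m of at least 10, and 37 of those met the limit on whole seed. Their globular values are therefore a description, and what could be tested was their behaviour in the 44 libraries outside the globular stage.

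The libraries came from 1 cultivar, CDC Gold, with no treatment or genotype that set groups apart. Embryo, seed coat and whole seed were sampled at 8 stages. These were, in order, zygote and quadrant, then globular and heart, then torpedo and the 2 bent stages (early and late), and last mature. The unfertilized ovule was classed with whole seed. Each of the 25 groups had 2 replicates, which makes 50 libraries of 13019472 to 35634980 reads, recovered from the deposited values and summed over genes. All flowers were emasculated and hand-pollinated, seed coat was what remained once the embryo had been dissected out, and RNA was amplified with a kit for low input. The sources used here do not give the plants, seed lots or days behind the libraries, nor the number of seeds pooled. Stage and source of the material cannot be told apart where a group had a single source. The gene identifiers carry no names, so the labelled tissues could not be checked against marker genes and no functions are given below.

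A legume seed is built from tissues of different origin. The seed coat grows from the maternal integuments, whereas the embryo and the endosperm are products of fertilization. The embryo passes from a zygote through a globular ball of cells to the heart and torpedo forms, in which the cotyledons arise, and then bends and fills. A transcript of the embryo or the seed coat is normally also found in RNA of the whole seed, diluted by the other parts. In bulk libraries, fewer cells that express a gene and less RNA per cell cannot be told apart.

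Values are read counts divided by 1 size factor per library and are called normalized reads. In globular whole seed the 37 genes together had 29.7 normalized reads in replicate 1 and 45.2 in replicate 2, from 39 and 52 reads. The same genes summed to 9642 and 5374 in globular embryo and to 2435 and 6941 in globular seed coat. No read was found in either whole seed library for 12 genes, and 25 had at least 1 read. A count of 0 allowed up to 3 reads, or 2.29 and 2.61 normalized reads in these libraries, and this limit covers counting error only. All 37 were lower in globular whole seed than in the mean of embryo and seed coat, which the rule fixed, and 3.72% of all tested genes were lower in that comparison. The globular whole seed libraries did not stand out in depth, with 23121701 and 25611154 reads, and 99.2% and 98.3% of the genes with an m of at least 10 had at least 50% of m there.

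The value of m was set by 1 library for nearly every gene. Seed coat replicate 1 was the lowest of the 4 globular part libraries for 36 of the 37 genes (97.3%), against 17.5% of genes with an m of at least 10. Relative to m, the median gene stood at 274% and 159% in globular embryo, 100% in seed coat replicate 1 and 278% in seed coat replicate 2. Without seed coat replicate 1 the rule took 57 genes. The largest m was that of Lcu.2RBY.5g014690 at 267.8 normalized reads, the median m was 41.4 and the smallest was 10.7. Just inside the limit of 10% were Lcu.2RBY.5g024480 at 8.92% and Lcu.2RBY.5g021810 at 8.00%, and just outside were Lcu.2RBY.5g041970 at 10.01% and Lcu.2RBY.5g022300 at 10.2%. Both outer genes carry the number next to that of a member, Lcu.2RBY.5g041960 and Lcu.2RBY.5g022310. The members with the smallest m were Lcu.2RBY.3g011380 and Lcu.2RBY.L000240 at 10.7, and Lcu.2RBY.1g020730 and Lcu.2RBY.5g016720 fell just short of an m of 10 normalized reads.

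By their identifiers, which carry the chromosome before the letter g, the genes were concentrated on chromosome 5, and most of the rest lay on chromosome 3. Chromosome 5 held 24 of the 37 genes (64.9%, exact 95% binomial interval 47.5% to 79.8%), against 13.3% of the 17061 genes with an m of at least 10. Chromosome 3 held 9 (24.3%, interval 11.8% to 41.2%), against 13.97%, a share that lies inside the interval. Chromosomes 6 and 7 held 1 each, 2 were unplaced, and none carried an identifier of chromosome 1, 2 or 4. Neighbouring genes are not independent draws, so these intervals cover counting error only.

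**Figure D1:**
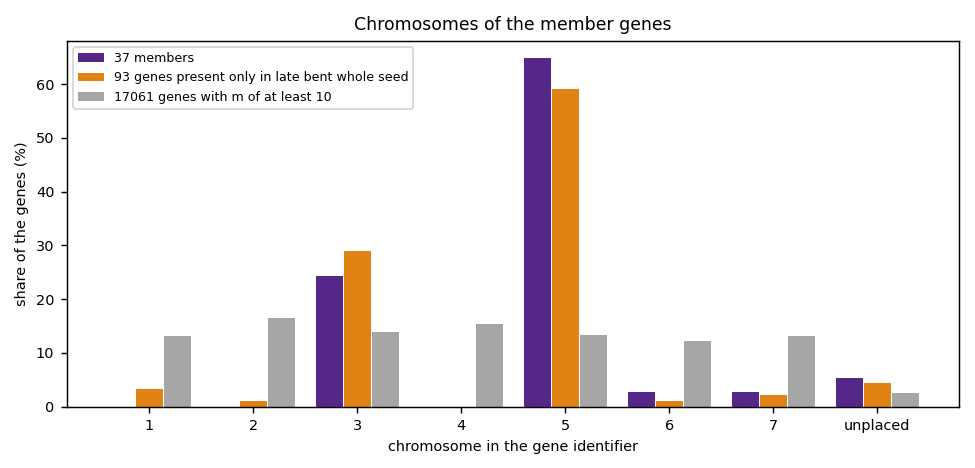
Share of genes by the chromosome named in the identifier, in percent of each set, for the 37 genes, for 93 genes present only in late bent whole seed and for the 17061 genes with an m of at least 10 normalized reads. Chromosome 5 holds 64.9% of the 37 genes and 13.3% of the 17061.

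On each of these chromosomes the genes were spread over a long stretch and scattered among genes that behaved otherwise. The number after the letter g was taken as the order of genes along the chromosome. On chromosome 5 they ran from Lcu.2RBY.5g014690 to Lcu.2RBY.5g053820, places 1469 to 5382 of 7490 in identifier order. That stretch held 781 genes with an m of at least 10, of which 3.07% were members and 725 were at 50% of m or more in both globular whole seed libraries. On chromosome 3 they ran from Lcu.2RBY.3g007590 to Lcu.2RBY.3g038020, places 759 to 3802 of 7581, among 706 genes with an m of at least 10, of which 1.27% were members. Only 4 of the 37 (10.8%) had another member within 10 places, namely the pairs Lcu.2RBY.5g033030 with Lcu.2RBY.5g033040 and Lcu.2RBY.5g053810 with Lcu.2RBY.5g053820. Of the genes with an m of at least 10, 0.914% lay that close to a member. That share covers all chromosomes, also those without members, so the difference between the shares does not measure closeness within a stretch. The median distance to the nearest other member was 80 places.

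Outside the globular stage the genes mostly switched together. A gene was called off in a library at 10% of m or less, on at 50% of m or more, and between otherwise. Over 44 libraries and 37 genes, 53.1% of the states were off, 36.5% on and 10.3% between. For all genes with an m of at least 10 the shares were 1.48% off, 91.4% on and 7.09% between. Most of the genes were on in 17 libraries and off in 26, and 1 library had neither state in most genes.

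**Figure D2:**
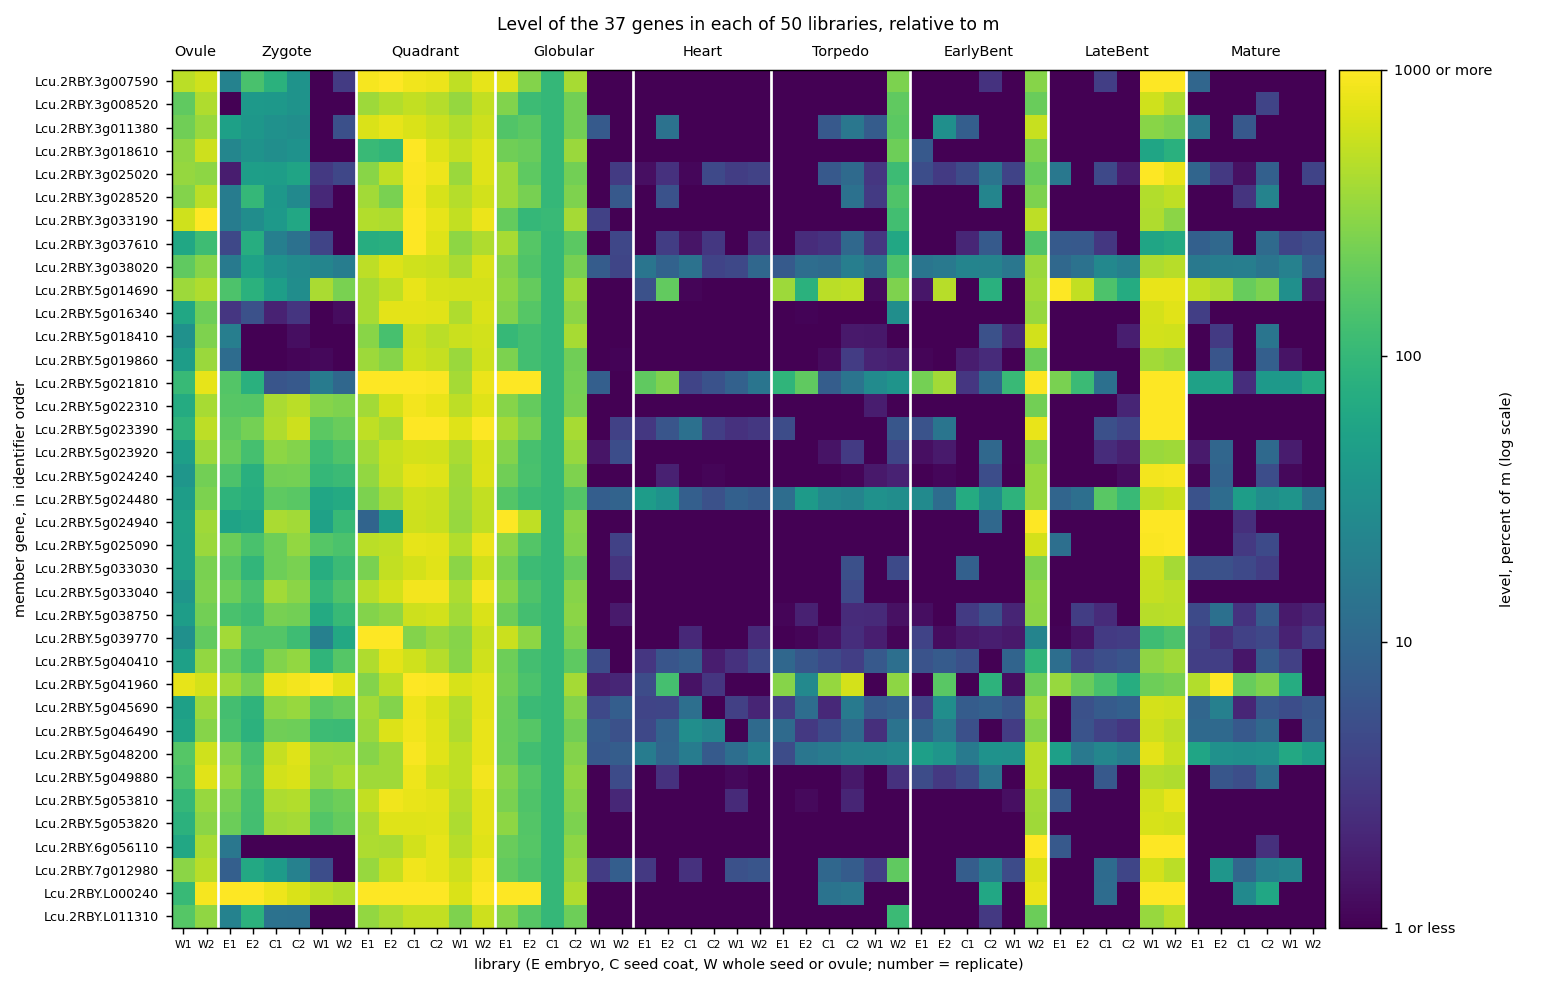
Level of each of the 37 genes (vertical axis, identifier order) in each of the 50 libraries (horizontal axis, by stage and tissue), as percent of m on a log colour scale. Quadrant libraries are bright throughout, heart libraries dark apart from a few genes, and single bright columns stand at early bent and torpedo.

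At the quadrant stage the genes were high in all 3 tissues. All 37 genes were on in the 4 whole seed and seed coat libraries, and 36 were on in each embryo library. The exception was Lcu.2RBY.5g024940, off in embryo replicate 1 and between in replicate 2. The median gene stood at 382% and 512% of m in embryo, 788% and 718% in seed coat and 439% and 709% in whole seed. Over all genes with an m of at least 10, the medians of these libraries were 124% to 149%. The sum over the 37 genes was 14271 and 17493 normalized reads in embryo, 17319.9 and 15766 in seed coat and 10573 and 16397 in whole seed.

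At the heart stage nearly all of the genes were off in all 3 tissues. Between 32 and 36 of the 37 were off in each of the 6 libraries, and their sum was 115 and 735.6 normalized reads in embryo, 57.2 and 33.4 in seed coat and 28.99 and 47.7 in whole seed. Depth was similar, at 21819037 to 28253458 reads in the quadrant libraries and 19686048 to 35634980 in the heart libraries. For every one of the 37 genes the lowest of the 6 quadrant values lay above the highest of the 6 heart values, which held for 2.07% of genes with an m of at least 10. The median of the 6 heart values was 0 for 19 genes, and 32 genes stayed under 10 normalized reads in all 6. The largest heart values were 507 for Lcu.2RBY.5g014690, 110.2 for Lcu.2RBY.5g041960 and 75.8 for Lcu.2RBY.5g021810.

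The step from quadrant to heart was tested with limma on log2(normalized reads + 1), a comparison chosen after the values had been seen. A gene was called changed at an adjusted p (Benjamini-Hochberg over 29440 tested genes) under 0.05 and a fold of at least 2. In seed coat all 37 genes were lower at heart, against 1.18% of all tested genes, with a median log2 difference of -7.62. In whole seed all 37 were lower, against 1.27%, with a median of -7.05. In embryo 34 were lower, against 12.5%, with a median of -6.66. The 3 not called in embryo were Lcu.2RBY.5g014690, Lcu.2RBY.5g041960 and Lcu.2RBY.5g024940. Folds on this scale understate the change of genes with few reads. The p-values rest on 1 spread per gene, pooled over all 25 groups of 2 libraries, not on the compared groups alone. That spread takes in groups whose 2 libraries differed widely, such as early bent whole seed described below. It may be technical, since nothing says that replicates came from separate plants.

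The pair Lcu.2RBY.5g053810 and Lcu.2RBY.5g053820 shows cleanly the pattern of the 19 genes of chromosome 5 from Lcu.2RBY.5g022310 on, to which it belongs. These are consecutive identifiers on chromosome 5, and both were in the most common state of the 37 genes in 44 of 44 libraries. That state was taken over the same 37 genes, 19 of them in this set, so agreement with it is partly built in. In zygote whole seed, 20 genes were on in both replicates and 14 were off in both. Lcu.2RBY.5g053820 had 217 and 129.8 normalized reads in zygote embryo, 380 and 402 in zygote seed coat and 159 and 199 in zygote whole seed. At quadrant it had 426 and 732 in embryo, 729 and 735 in seed coat and 430.5 and 762 in whole seed. At heart and torpedo it had 0 in all 12 libraries. It came back in early bent whole seed replicate 2 at 377 against 0 in replicate 1, and in late bent whole seed at 661 and 633. Its remaining early bent, late bent and mature libraries were at 0 except for 0.713 in mature seed coat replicate 1. The 2 ovule libraries had 85.5 and 305. Outside the globular stage no value of this gene lay between 0.713 and 85.5.

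The neighbour Lcu.2RBY.5g053810 kept a near constant proportion to it. Over the 17 libraries with most genes on, the ratio of Lcu.2RBY.5g053820 to Lcu.2RBY.5g053810 was between 0.988 and 1.29, with a median of 1.10. Lcu.2RBY.5g053810 had 80.5 and 280.2 in ovule, 351 and 365 in zygote seed coat, 641 and 609 in quadrant seed coat and 514 and 637 in late bent whole seed. Its 6 heart values were 0 apart from 1.85 and 0.692 in whole seed. No counting settings for reads shared between close copies are given in the sources used here, so the split of reads between this pair is uncertain if their sequences are alike. Lcu.2RBY.5g022310 and Lcu.2RBY.5g033030, of the same set of 19, also followed the most common state in 44 of 44 libraries.

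Of the genes with a large m, 3 that kept to the common states are given here, so their match with those states is built in. Others matched less. Lcu.2RBY.5g014690, with the largest m, was in the common state in 25 of the 44 libraries. Lcu.2RBY.5g024240 had 1128 and 1057 normalized reads in quadrant seed coat, 560.5 and 1047 in quadrant whole seed and 1345 and 1363 in late bent whole seed. Its 6 heart values were 2.86 or less, and it was at 150.0 and 399 in globular seed coat. Lcu.2RBY.5g038750 had 622 and 656 in quadrant seed coat and 505 and 520 in late bent whole seed, and 0.814 or less in the heart libraries. Lcu.2RBY.5g023920 had 651 and 634 in quadrant seed coat and 360 and 384 in late bent whole seed, and 0.814 or less at heart. For these 3 genes, as for all 37, the quadrant and heart libraries did not overlap.

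**Figure D3:**
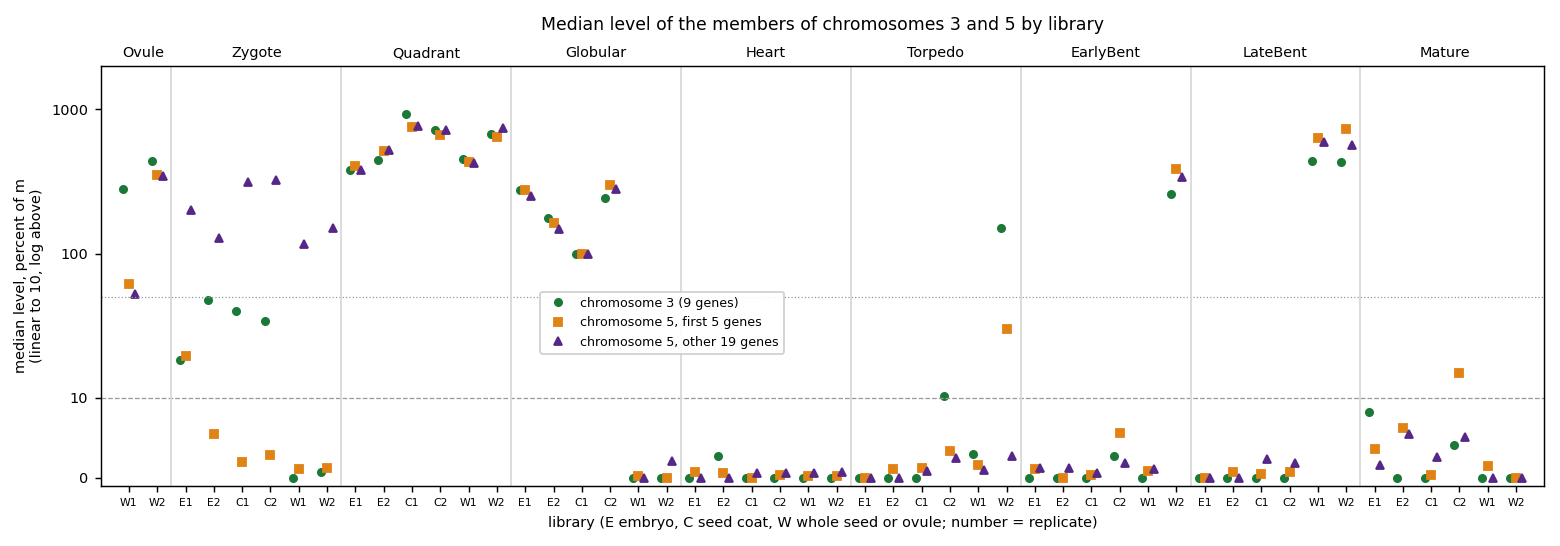
Median level of the genes of chromosome 3 (9 genes), of the first 5 genes of chromosome 5 and of its other 19, as percent of m in each of the 50 libraries; the vertical axis is linear to 10 and logarithmic above. The sets lie together at quadrant, heart and late bent, and part in the zygote libraries, where the other 19 genes stand at 116% to 326% of m. Chromosome 5 was divided by the zygote states of its genes, so the parting of its sets there is built in.

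At the zygote stage the genes did not act as 1 set. The 19 genes of chromosome 5 from Lcu.2RBY.5g022310 on were on, at least 18 of 19 in each of the 6 libraries, with medians of 201% and 129% of m in embryo, 313% and 326% in seed coat and 116% and 150.3% in whole seed. The first 5 genes of chromosome 5 were mostly off in whole seed, with medians of 1.16% and 1.25% of m, and in seed coat, with medians of 1.91% and 2.88%. Among them Lcu.2RBY.5g016340 was off in 6 of 6 libraries and Lcu.2RBY.5g018410 and Lcu.2RBY.5g019860 in 5 of 6, whereas Lcu.2RBY.5g014690 was off in 0 of 6. The chromosome 3 genes were off in zygote whole seed, 8 of 9 in each library, with medians of 0% and 0.708% of m. In zygote embryo they stood at 18.2% and 47.5% and in zygote seed coat at 39.7% and 34.1%, so that their medians lay below m in all of these libraries. Chromosome 5 was divided by these zygote states, after they had been seen. The later set starts where all following members were on in at least 5 of 6 zygote libraries. That the 19 genes were on at zygote is therefore built into the set and is a description.

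Lcu.2RBY.5g019860 shows the first of these sets. It had 28.1 and 1.68 normalized reads in zygote embryo, 0.583 and 2.63 in zygote seed coat and 2.80 and 2.28 in zygote whole seed. At quadrant it had 871 and 697 in embryo, 1475 and 1312 in seed coat and 854 and 1489 in whole seed. The 6 zygote values were all below the 6 quadrant values. Before fertilization the ovule had 114 and 845.5. Lcu.2RBY.5g016340 likewise had 56.1 and 201 in ovule, 5.03 or less in all zygote libraries and 371 to 692 in the quadrant libraries. Lcu.2RBY.6g056110, on another chromosome, had 26.1 and 168 in ovule, 0 in 5 of 6 zygote libraries with 6.36 in embryo replicate 1, and 170.4 to 319 at quadrant. These 3 genes were off in 32 of the 44 libraries, the most of the 37.

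From ovule to zygote whole seed 16 of the 37 genes fell, against 2.27% of all tested genes (limma). They were all 9 genes of chromosome 3, 4 of the first 5 of chromosome 5, 0 of its other 19, and 3 of the 4 elsewhere. The median log2 difference was -6.23 for chromosome 3, -5.62 for the first 5 of chromosome 5 and 0.12 for the other 19. The sets of chromosome 5 had been divided by their zygote states, so the contrast between them is largely built in. By gene, Lcu.2RBY.5g019860 fell by 6.47 on the log2 scale (SE 1.48, adjusted p = 0.00823), Lcu.2RBY.6g056110 by 6.08 (SE 1.34, adjusted p = 0.00550) and Lcu.2RBY.3g038020 by 3.38 (SE 0.877, adjusted p = 0.0211). Lcu.2RBY.5g053820 differed by 0.14 (SE 1.20, adjusted p = 0.972). The count was 5 without ovule replicate 2 and 8 without either zygote whole seed replicate. The 2 ovule libraries differed, with 29 genes on and 8 between in replicate 1 and 37 on in replicate 2.

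From zygote to mature, 23 genes were lower in embryo, against 25.5% of all tested genes, and 24 in seed coat, against 17.9%. The other 19 genes of chromosome 5 made up 18 of the 23 and 18 of the 24, and the first 5 made up 0 of each. Chromosome 5 had been divided by the zygote states of its genes, so this split is largely built in. Lcu.2RBY.5g053810 fell by 8.49 on the log2 scale in seed coat (SE 1.12, limma adjusted p = 1.78e-07). Chromosome 3 gave 3 and 5 calls.

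The early bent stage split its 2 whole seed libraries. In replicate 1 the genes were off, 33 of 37, with a sum of 109 normalized reads, and in replicate 2 none was off and 36 were on, with a sum of 7925. For 32 of the 37 genes 1 replicate was on and the other off, against 0.563% of genes with an m of at least 10. Lcu.2RBY.5g016340 had 0 and 315, Lcu.2RBY.5g024240 had 1.07 and 513, and Lcu.2RBY.6g056110 had 0 and 475. The 2 libraries had 23637960 and 19473069 reads and 45.2% and 33.8% of all genes at 0. Early bent embryo and seed coat were off, with 24 to 34 genes off in each of the 4 libraries.

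Torpedo whole seed replicate 2 was mixed by chromosome. All 9 genes of chromosome 3 were on there, at a median of 151% of m, whereas 14 of the other 19 genes of chromosome 5 were off, at a median of 2.71%. Of the first 5 genes of chromosome 5, 2 were off and 1 was on. Lcu.2RBY.3g007590, the first identifier on chromosome 3 and chosen after its values were seen, had 88.5 in that library and 0 in the other 5 torpedo libraries. Lcu.2RBY.3g038020 had 120.4 there and 5.76 to 15.7 in the others. In torpedo whole seed replicate 1, 33 genes were off and none was on. Replicate 2 was the shallowest of the 50 libraries at 13019472 reads, and its part in these values was not tested.

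At the late bent stage the contrast of the globular stage was turned around. All 37 genes were on in both whole seed libraries, with sums of 18252 and 18627 normalized reads, and 29 to 32 were off in each of the 4 embryo and seed coat libraries, with sums of 332 to 3042. With limma, 35 of the 37 genes were higher in whole seed than in the mean of embryo and seed coat, against 6.18% of all tested genes, with a median log2 difference of 7.09. Lcu.2RBY.L000240 was higher by 11.29 (SE 0.966, adjusted p = 1.62e-09), Lcu.2RBY.5g053820 by 9.34 (SE 1.04, adjusted p = 2.17e-07) and Lcu.2RBY.5g039770 by 5.74 (SE 0.707, adjusted p = 8.69e-07). The exceptions were Lcu.2RBY.5g014690 at 1.56 (SE 2.08, adjusted p = 0.709) and Lcu.2RBY.5g041960 at 0.49 (SE 1.88, adjusted p = 0.911). The count was 33 to 35 whichever of the 6 libraries was left out.

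**Figure D4:**
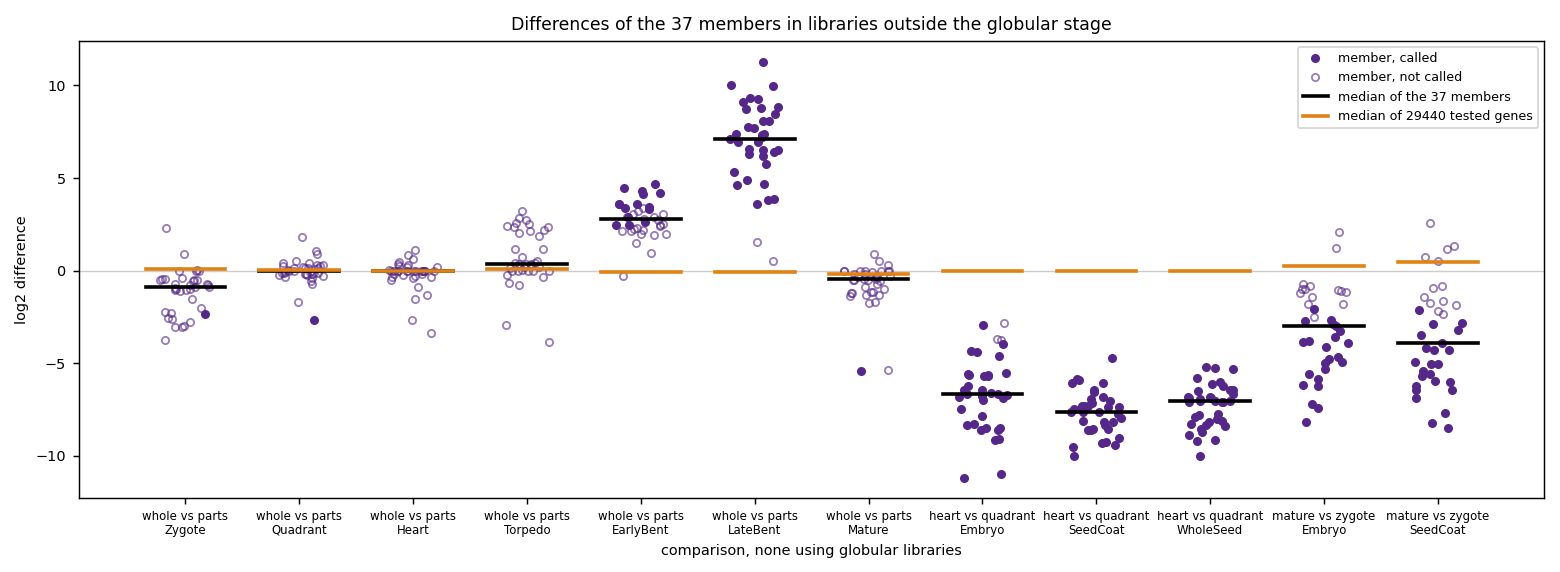
Log2 difference of each of the 37 genes in comparisons that use no globular library, with filled points for genes called by limma and bars for the median of the 37 genes and of the 29440 tested genes. The late bent whole seed contrast has a median of 7.09, and the heart to quadrant contrasts have medians of -6.66, -7.62 and -7.05.

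At the other stages fewer of these genes passed the test of whole seed against its parts. At early bent 14 genes were higher in whole seed, against 6.15% of all tested genes, and 32 were higher at an unadjusted p under 0.05. The early bent count was 30 by DESeq2 and 34 by edgeR, 0 without whole seed replicate 2, 35 without replicate 1 and 9 without seed coat replicate 1. At torpedo limma called 0 genes higher, against 5.65%, with 10 at an unadjusted p under 0.05, 7 by edgeR and 6 by DESeq2, and 10 without whole seed replicate 1. At heart 0 were higher, against 9.52%, and 0 lower, against 4.66%, with 0 in either direction at an unadjusted p under 0.05, 0 by edgeR and 1 lower by DESeq2. At zygote 1 gene was lower, Lcu.2RBY.5g039770, against 3.07%, with 11 lower at an unadjusted p under 0.05 and 3 called by DESeq2. At quadrant 1 was lower, Lcu.2RBY.L000240, against 4.56%, and at mature 1, Lcu.2RBY.5g041960, against 8.28%, with 2 lower at an unadjusted p under 0.05 at each of these stages. The quadrant count was 0 by DESeq2, the mature count was 0 by edgeR, and none of these 3 single calls held over all left-out libraries.

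Over the mean of the 7 other stages 28 genes were higher in whole seed, against 5.46% of all tested genes, with a median log2 difference of 1.25. The count was 5 by edgeR, 12 with a pseudocount of 8 and 10 without early bent whole seed replicate 2. The difference of the late bent contrast from the mean of the 6 other contrasts was higher for 34 genes, against 6.35% of all tested genes, with a median of 6.80 on the log2 scale. This comparison was chosen after the values had been seen, and edgeR called 8 genes in it. Between embryo and seed coat, over the 7 stages, 1 gene passed the test in each direction. Lcu.2RBY.5g021810 was higher in embryo, against 12.6% of all tested genes, and Lcu.2RBY.5g024940 was lower, against 28.1%, a call not made by edgeR or with a pseudocount of 8.

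The reverse rule, at least 10 normalized reads in both whole seed libraries and at most 10% of their smaller value in all 4 embryo and seed coat libraries, took 93 genes at late bent, or 0.479% of those with at least 10 in both. Of the 37 genes 33 were among them, which is 89.2% of the 37 and 35.5% of the 93. Of the 93, 55 carried an identifier of chromosome 5 and 27 of chromosome 3. The 93 genes were taken on late bent values alone, but for the 33 the globular rule had fixed low values in globular whole seed. The other 60 had failed that rule, so their globular values were shaped by a choice too and are a description. Of the 60, 58 and 53 were at most 10% of their late bent minimum in the 2 globular whole seed libraries, with 0 at 50% or more. In globular embryo and seed coat 2 to 15 of the 60 were at most 10% and 2 to 23 were at 50% or more. Their medians there were 14.6% to 42.5% of the late bent minimum, which is another measure than m. In early bent whole seed all 60 were at most 10% in replicate 1, and 39 were at 50% or more in replicate 2. In the quadrant libraries 30 to 55 of the 60 were at 50% or more. The same counts were not taken over all genes with at least 10 in both late bent whole seed libraries. How unusual the counts of the 60 are was therefore not tested. At heart the reverse rule took 99 genes, at mature 16 and at torpedo 1, and none of these was among the 37. The rule itself, applied to the other 7 stages, took genes only at late bent, where it took 45, again with 0 of the 37. Another gene of the same set lay within 10 places for 33.3% of the 93, 4.04% of the 99 and 37.5% of the 16. The share was 22.2% for the 45 and 10.8% for the 37. These sets differ in size, so their shares are not directly comparable.

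A pair of genes left the common pattern together. Lcu.2RBY.5g014690 and Lcu.2RBY.5g041960, which lie far apart on chromosome 5, were in the same state in 40 of the 44 libraries and were both off in 10. Lcu.2RBY.5g014690 had 978 and 218 normalized reads in torpedo embryo, 1315 and 1390.2 in torpedo seed coat and 3.19 and 702 in torpedo whole seed. At early bent it had 4.03 and 1259.9 in embryo, 0.846 and 216 in seed coat and 0 and 1026 in whole seed, so that replicate 1 was low and replicate 2 high in all 3 tissues. At late bent it had 2617 and 1421 in embryo and 2151 and 2107 in whole seed, which overlap. At mature it had 1380.4 and 1136 in embryo, 534 and 684 in seed coat and 84.3 and 4.29 in whole seed. Lcu.2RBY.5g041960 had 0 and 144, 0 and 73.5, and 1.07 and 182 in the early bent embryo, seed coat and whole seed libraries, again low in each replicate 1. Its mature values were 381 and 871 in embryo, 167 and 220.1 in seed coat and 60.2 and 0 in whole seed, the last being lower by 5.41 on the log2 scale (SE 1.88, limma adjusted p = 0.0394).

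Other genes kept a low level where the rest were off. Lcu.2RBY.5g048200 was off in 3 of the 44 libraries, Lcu.2RBY.3g038020 in 5 and Lcu.2RBY.5g024480 in 6, and they were between in most of those where the rest were off. Lcu.2RBY.5g048200 had 3.26 to 8.99 normalized reads in the heart libraries and 14.3 to 29.2 in the mature ones, against 131 to 433 at quadrant. Lcu.2RBY.3g038020 had 3.26 to 11.9 at heart, 6.44 to 17.2 at mature and 341 to 577 at quadrant. Lcu.2RBY.5g024480 had 1.63 to 13.3 at heart and 75.8 to 176 at quadrant. In each of these genes the quadrant libraries lay above all heart and mature libraries.

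A further pair of genes was higher in embryo than in seed coat at the early stages. Lcu.2RBY.5g039770 had 4128 and 3116 normalized reads in quadrant embryo, 741 and 948 in quadrant seed coat and 746 and 1476 in quadrant whole seed. At zygote it had 1018 and 421 in embryo, 417 and 308 in seed coat and 53.8 and 169.6 in whole seed, the last being lower than the mean of the parts by 2.33 on the log2 scale (SE 0.707, limma adjusted p = 0.0429). Lcu.2RBY.L000240, which is unplaced, had 1482 and 2803 in quadrant embryo, 171 and 141 in quadrant seed coat and 71.5 and 105 in quadrant whole seed, the last lower by 2.69 (SE 0.966, limma adjusted p = 0.0462). In both genes of this pair the embryo libraries lay above the seed coat libraries at quadrant. The same held for Lcu.2RBY.5g021810 but not for all genes, as Lcu.2RBY.5g024940 was lower in quadrant embryo than in quadrant seed coat. In late bent whole seed Lcu.2RBY.L000240 reached 2834 and 3318 while late bent embryo was at 0 in both replicates.

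Gene pairs were compared by the states they shared, within and between the chromosomes. The median share of the 44 libraries in which 2 genes had the same state was 88.6% over the 36 pairs on chromosome 3, 81.8% over the 276 pairs on chromosome 5 and 77.3% over the 216 pairs of 1 gene from each. The lowest share was 29.5% among the chromosome 5 pairs, 43.2% among the chromosome 3 pairs and 31.8% among the pairs across them. These shares are a description with no test of their difference, since all pairs were taken from the same libraries and by the same rule. Pairs of other genes were not compared. Over all genes with an m of at least 10, 91.4% of the states were on, so such pairs would often share a state too.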

How the data were processed

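RNA-seq of 50 lentil libraries was analysed from 1 deposited table. Its values are a signal per gene that the authors made from read counts by dividing by 1 factor per library. Per the submitters' processing notes, DESeq2, featureCounts, Trimmomatic and CASAVA were used, with no versions or roles listed. An aligner, a genome build and a strand setting were not given in the sources used here. Multiplied back by its factor, 100% of the deposited values came out as whole reads within 0.001 reads. The 37 genes, the comparisons and the named genes were chosen with earlier results of these data known. The main test was limma 3.58.1 (R 4.3.3, trend and robust) on log2(value + 1) with 25 group coefficients over the 29440 genes with at least 10 in at least 2 libraries, 37 of the 37 included. Called genes had a Benjamini-Hochberg adjusted p under 0.05 and a fold of at least 2. In simulated counts most changed genes were recovered, and false calls exceeded the nominal rate, mainly at low means. Alternatives were a pseudocount of 8, no filter, TMM scaling, a replicate block, a 5% rule, each replicate left out, and edgeR 4.0.16 and DESeq2 1.42.0 on the recovered reads. Named genes are the 8 with the largest m, up to 4 each of those called lower (3 met this) and higher in whole seed at most stages, the longest run of neighbours, the 3 off in most and in fewest libraries, and those nearest the limits. Python 3.11.15 and pandas 2.3.3 were used for counts and matplotlib 3.10.9 for figures.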

Additional observations from a re-analysis of the deposited data

Results flagged for a closer look

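The difference between whole seed and its parts was itself not the same at every stage. Tested as an interaction with limma, the late bent difference exceeded the mean of the 6 other stages outside the globular stage in 34 of the 37 genes, with a median of 6.80 on the log2 scale. The count was 30 by DESeq2 and 8 by edgeR, and 33 to 35 with any 1 library left out. The comparison was chosen after the values had been seen.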

How the results depend on the processing

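Of 263 results under other settings than leaving out a library, 231 stayed within 1.5 times the value given or, where there was no test, within its spread, and 32 moved. With m of at least 50 the rule took 15 genes, 80.0% of them on chromosome 5. Genes with another within the window made up 26.9% with a 20% limit and 35.1% within 50 places. For whole seed against its parts, the genes lower at zygote were 3 by DESeq2, 2 with TMM, 0 without the filter and 4 with the replicate block. At quadrant they were 0 by DESeq2 and without the filter, and 2 with a pseudocount of 8. At mature they were 2 by DESeq2 and with a pseudocount of 8, and 0 by edgeR and without the filter. At heart DESeq2 called 1 lower. The genes higher were 6 by DESeq2 and 7 by edgeR at torpedo, 30 and 34 at early bent, and over 7 stages 5 by edgeR and 12 with a pseudocount of 8. The late bent interaction gave 8 by edgeR. For embryo against seed coat 2 were higher by DESeq2 and edgeR and 0 by the 5% rule, and 0 were lower by edgeR and with a pseudocount of 8. From zygote to mature 1 rose in seed coat by DESeq2. The cause was not tested in any of these.

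With 1 library left out, the genes taken by the rule ranged from 37 to 57. Whole seed against its parts gave 0 to 2 lower at zygote, 0 to 1 at quadrant and at mature, 0 to 10 higher at torpedo, 0 to 35 at early bent and 33 to 35 at late bent. Over 7 stages it gave 10 to 33 higher and 0 to 1 lower. Embryo against seed coat gave 1 to 2 higher and 1 to 2 lower, and ovule to zygote 5 to 13 lower. Mature against zygote gave 18 to 20 lower in embryo and 20 to 22 in seed coat. Heart against quadrant gave 33 to 34 lower in embryo, 34 to 35 in seed coat and 34 to 37 in whole seed.

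The labels do not say that replicate numbers pair libraries, and the correlation of replicate differences between groups, across genes, ran from -0.466 to 0.536 over 300 pairs of groups and was over 0.1 in 59. Within a stage all 3 tissue pairs were over 0.1 at torpedo (0.118 to 0.280), but not at early bent (-0.151 to 0.278) or any other stage. The replicate block over all stages moved no count but the 4 at zygote by over 1.5 times. A replicate block within each stage, added after seeing the data, gave 0 higher at torpedo, 14 at early bent, 2 lower at zygote and at mature, and 2 higher in embryo than in seed coat, and moved no other count by over 1.5 times. Calls rest on 2 libraries a group. Without names or sequences for the identifiers, the genes could be described by number and level only. States near 0 reads cannot be told from levels under 3 reads a library.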
